A study of Homo sapiens with 20 samples.

Results

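GDF15 (growth differentiation factor 15, ENSG00000130513) is described here across all 20 RNA-seq libraries of U2-OS cells, a human line from an osteosarcoma, a bone tumour. It was taken as the row of the count table that carries its symbol, which is 1 of 20314 genes listed and 1 of the 14992 genes that had enough counts to be tested. The gene was chosen by its measured levels in these libraries, being higher than in untreated cells after ionizing irradiation (IR) and also with NFKBIA knockdown, so its comparisons with untreated cells are given as a description, without a test. The 4 groups of 5 libraries were untreated U2-OS cells, cells collected 90 minutes (1.5 h) after IR at 20 Gy, cells collected 7 days after the same dose, and non-irradiated cells with shRNA knockdown of NFKBIA, the gene for the NF-κB inhibitor IκBα. All cells were grown in DMEM with 10 percent serum. The study's methods describe its shRNA as a doxycycline-inducible lentiviral vector, with doxycycline-treated scrambled shRNA cells as controls, but no library here is labelled as such a control and no label of an untreated library mentions a vector or doxycycline. Effects of vector, drug and IκBα loss on GDF15 can therefore not be told apart in the knockdown group. The study calls the libraries of a group biological replicates. The labels do not say how the cultures were separated, so p-values measure the spread between these libraries, which may be technical.

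GDF15 is a secreted, divergent member of the transforming growth factor-beta (TGF-beta) family. Most tissues make little of it at rest and much more under stress, where the tumour suppressor p53 and the integrated stress response (ISR), a pathway that slows translation and acts through the transcription factors ATF4 and CHOP, are known to drive its gene. The protein is cut from a precursor by furin-like convertases, is part of the senescence-associated secretory phenotype, and acts on GFRAL, a receptor of hindbrain neurons that signals through the co-receptor RET and lowers food intake.

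The libraries held 22535659 to 40390961 counts each, so GDF15 was read by 76 to 156 counts in untreated libraries and by 253 to 1785 elsewhere. Levels are given as CPM, the count scaled to the size of its library, after trimmed-mean scaling, with SD over 5 libraries. NFKBIA itself stood at 13.0, 11.2, 12.1, 12.0 and 12.4 CPM in the 5 knockdown libraries, below the 23.5 to 42.0 CPM of the untreated libraries, and at 76.3 to 88.3 CPM 1.5 h after IR. Untreated replicate 5 stood apart, being the shallowest library and holding 733 CPM of TGFB1 against 237 to 265 in the other 4. Untreated replicate 2 and 1.5 h replicate 3 stood apart through amino acid response genes, as given with the ISR targets. The cells expressed the mesenchymal and bone markers VIM, COL1A1, SPARC, RUNX2 and ALPL, whereas the osteoblast markers SP7 and IBSP had at most 3 counts in any library. The 5 epithelial markers summed to 18.6 to 27.4 CPM in untreated libraries, up to 23.8 at 1.5 h, 10.8 to 12.1 at 7 days and 29.2 to 33.4 with knockdown. By the rule given below, all 5 were called lower at 7 days (14.4% of all genes). With knockdown 3 were called lower and 1 higher (7.53% and 5.18% of all genes). Of 7 mesenchymal and bone markers tested, 1 was called lower at 1.5 h (1.57% of all genes). At 7 days 1 of these was called higher and 1 lower (16.7% and 14.4%), and 2 were called lower with knockdown. The part of either marker set in the GDF15 differences was not tested. Markers of trophoblast, a tissue with high GDF15, had at most 10 counts.

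In GENCODE 29 on GRCh38, GDF15 spans chr19:18374731-18389176 on the plus strand and has 5 transcripts. The principal coding transcript, GDF15-201, starts at 18386158 and has 2 exons with a length of 1200 bases. The microRNA gene MIR3189 lies in its intron at 18386562 to 18386634 and is not a row of the count table. The 250 bases before the start of GDF15-201, chr19:18385908-18386157 on the plus strand of RefSeq's GRCh38.p14, are shown because members of the p53, ISR and NF-κB pathways are described below, with every short motif found among those searched in capitals.

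GDF15 promoter: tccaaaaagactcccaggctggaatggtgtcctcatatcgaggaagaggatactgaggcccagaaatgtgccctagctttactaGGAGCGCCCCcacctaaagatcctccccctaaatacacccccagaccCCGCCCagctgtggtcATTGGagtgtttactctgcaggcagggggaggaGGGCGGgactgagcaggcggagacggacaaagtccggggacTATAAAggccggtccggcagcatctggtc

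Motifs were searched on both strands of the 300 bases from 250 before to 50 after the start, in GDF15 and in 27305 RefSeq promoters of the same length, and did not overlap one another in this window. The TATA box TATAAA began 29 bases before the start and was found in 12% of promoters. The Sp1 motif GGGCGG occurred at -70 and, on the minus strand, at -119, and 44.6% of promoters held it. The CCAAT motif lay at -103 on the minus strand, with 35.7% of promoters holding it. A match to the κB pattern searched, the stretch GGAGCGCCCC in the sequence above, lay at -166 on the minus strand. Such a match was found in 10.8% of promoters, and binding to it was not tested. Within these 300 bases there was no match to the AP-1 motif TGANTCA (held by 7.76% of promoters), the CRE TGACGTCA (1.98%), the C/EBP-ATF motif TGATGNAA (3.67%), the EGR1 motif GCGNGGGCG (9.28%) or the E-box CACGTG (7.43%).

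A match to the paired p53 motif with both cores intact and 3 mismatches elsewhere began 29 bases after the start, at chr19:18386186-18386205, and overlaps the start codon at 18386190 to 18386192. Pairs with at most 3 such mismatches were found in 0.418% of promoters, and pairs with none in 0.0183%. In this sequence the capitals mark the bases that fit the p53 motif.

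p53-like site: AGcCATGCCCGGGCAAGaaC

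GDF15 was lowest in untreated cells, higher with NFKBIA knockdown, higher again 1.5 h after IR and highest 7 days after IR. In the 5 untreated libraries it stood at 2.43, 4.32, 2.63, 3.66 and 3.62 CPM (mean 3.33 ± 0.784, SD, n = 5). In the 5 knockdown libraries it stood at 8.92, 8.73, 11.0, 10.6 and 8.96 CPM (9.64 ± 1.07, SD, n = 5). All 5 lay above every untreated library and below every irradiated one. At 1.5 h after IR the values were 17.7, 13.4, 22.9, 16.2 and 13.0 CPM (16.6 ± 4.04, SD, n = 5). At 7 days they were 38.5, 48.0, 51.5, 50.9 and 51.7 CPM (48.1 ± 5.57, SD, n = 5). No library of any group overlapped with another group. In bulk RNA a change in the number of cells that express GDF15 and a change in its RNA per cell cannot be told apart.

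**Figure D1:**
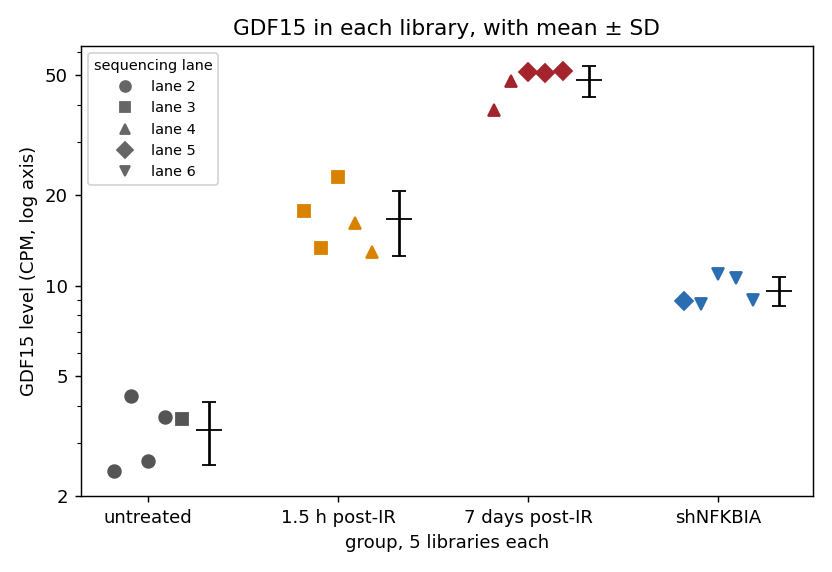
GDF15 level in CPM on a log axis in each of the 20 libraries by group, with marker shapes for the sequencing lane and bars for the group mean ± SD. The groups do not overlap, with means of 3.33, 16.6, 48.1 and 9.64 CPM from left to right.

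Against untreated cells, GDF15 was 5.03-fold higher 1.5 h after IR (log2 fold change 2.33, SE 0.165), 14.5-fold higher at 7 days (3.86, SE 0.166) and 2.91-fold higher with knockdown (1.54, SE 0.169). Ordered by log2 fold change among all 14992 genes, these rises were in place 6 at 1.5 h, place 68 at 7 days and place 75 with knockdown. A gene was called where the adjusted p was below 0.05 and the log2 fold change beyond 0.5 in either direction. By that rule 2.08% of all genes were called higher at 1.5 h, 16.7% at 7 days and 5.18% with knockdown. The libraries of the groups compared did not overlap for 12.3%, 44.8% and 24.1% of genes.

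Per kilobase of transcript, GDF15 was near the middle of all listed genes in untreated cells and in the upper part at 7 days. Its mean level was 1.60 CPM per kb in untreated cells, in place 11232 of 20314 listed genes. It stood at 4.62 CPM per kb with knockdown (place 8547), at 7.98 at 1.5 h (place 6378) and at 23.1 at 7 days (place 2286).

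The differences between the raised groups were not used to pick GDF15 and were tested by quasi-likelihood in edgeR, and p-values were adjusted by Benjamini-Hochberg over all 14992 genes. GDF15 was 2.89-fold higher at 7 days than at 1.5 h (log2 fold change 1.53, SE 0.141, adjusted p = 6.48e-09), with all 5 libraries at 7 days above all 5 at 1.5 h. In that comparison 16.8% of genes were called higher and 61.8% had groups that did not overlap. It was 4.99-fold higher at 7 days than with knockdown (2.32, SE 0.148, adjusted p = 2.26e-11), where 15.8% of genes were called higher and 60.7% did not overlap. It was 1.73-fold lower with knockdown than at 1.5 h (log2 fold change -0.79, SE 0.148, adjusted p = 0.000201), where 7.6% of genes were called lower and 43.6% did not overlap. An exact two-sided permutation test gave p = 0.00794 for each of these 3 differences, the smallest value that 5 against 5 libraries allow. These 3 comparisons share their libraries with one another and with the comparisons against untreated cells.

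Sequencing lanes followed the groups closely, and only a few libraries of different groups shared a lane. In lane 3, the 3 libraries of 1.5 h (13.4 to 22.9 CPM) exceeded the 1 untreated library (3.62 CPM), a difference of 2.26 in mean log2 CPM. In lane 4, the 2 libraries of 7 days (38.5 and 48.0 CPM) exceeded the 2 libraries of 1.5 h (13.0 and 16.2 CPM), a difference of 1.57. In lane 5, the 1 knockdown library (8.92 CPM) lay below the 3 libraries of 7 days (50.9 to 51.7 CPM), a difference of -2.52. GDF15 thus differed within each of these lanes in the same direction as between the groups. Knockdown shared no lane with untreated cells or with 1.5 h. Lane 2 held only untreated libraries and lane 6 only knockdown libraries. In a fit with lane as a factor, the untreated level therefore rests on untreated replicate 5, which stood apart. The knockdown level likewise rests on knockdown replicate 1. Such values, here and below, cannot tell an effect of lane from a trait of that 1 library. With lane as a factor, the log2 fold change of GDF15 for knockdown over 1.5 h was -0.96 (SE 0.33) and the call was lost (adjusted p = 0.0706 with edgeR, within 2e-06 to 0.0706 over the 9 other settings tried).

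Many of the p53 targets, genes that p53 switches on in cell cycle arrest, apoptosis and repair, were called higher after IR. Of the 32 targets tested (of 35 chosen), 20 were called higher and 0 lower at 1.5 h, with a median log2 fold change of 0.81 against -0.03 over all genes, where 2.08% were called higher and 1.57% lower. BTG2, an antiproliferative gene, rose by 1.89 (SE 0.043), CDKN1A, which encodes the cell cycle inhibitor p21, by 1.61 (SE 0.053), BBC3, the apoptosis inducer PUMA, by 1.51 (SE 0.087) and the phosphatase PPM1D by 1.37 (SE 0.058). At 7 days 29 were called higher and 0 lower, with a median of 0.99 against 0.01 over all genes, where 16.7% were called higher. CDKN1A reached 1.86 (SE 0.053), the death receptor FAS 1.82 (SE 0.048), MDM2, the ubiquitin ligase for p53, 1.78 (SE 0.041) and the kinase PLK3 1.69 (SE 0.047). CDKN1A stood at 225 CPM in untreated cells, 690 at 1.5 h and 816 at 7 days.

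With NFKBIA knockdown, 2 of the 32 p53 targets were called higher and 0 lower, with a median of 0.17 against -0.01 over all genes, where 5.18% were called higher. They were GADD45A, a growth arrest and stress gene (0.87, SE 0.076, from 49.1 to 89.9 CPM), and RRM2B, a ribonucleotide reductase subunit (0.53, SE 0.075). RRM2B lost its call without untreated replicate 4 (0.50) and without untreated replicate 5 (0.43), which left 1 of the list in each case. The count became 13 higher and 2 lower with lane as a factor. CDKN1A, at 260 CPM, differed from untreated cells by 0.21 (SE 0.051) and MDM2 by -0.06 (SE 0.04), neither past the threshold of 0.5. The fold changes of these targets were below those of GDF15 in each of the 3 comparisons, which are the values GDF15 was chosen by.

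**Figure D2:**
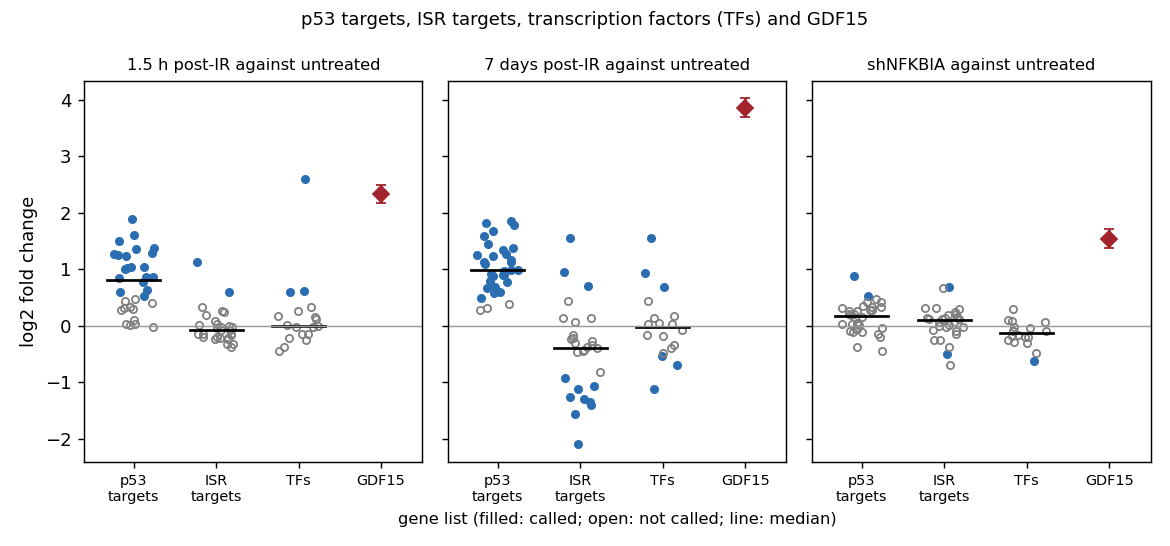
Log2 fold change against untreated cells of each tested p53 target, ISR target and transcription factor (points, filled where called, with the median as a line) and of GDF15 (diamond with SE) at 1.5 h, at 7 days and with shNFKBIA. The p53 targets have medians of 0.81, 0.99 and 0.17, the ISR targets of -0.07, -0.39 and 0.10, while GDF15 lies at 2.33, 3.86 and 1.54.

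The ISR targets, which supply amino acids, folate units and redox factors under stress, gave few calls at 1.5 h and with knockdown, and at 7 days more were called lower than higher, counts that changed with lane as a factor. Of 28 tested, 2 were called higher and 0 lower at 1.5 h, with a median log2 fold change of -0.07, beside 2.08% and 1.57% of all genes. They were SESN2, a stress sensor of amino acid signalling that is also a known p53 target (1.14, SE 0.121), and CEBPB (0.60, SE 0.148). CEBPB lost its call without untreated replicate 5 (0.46). The count became 8 higher and 1 lower with lane as a factor.

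At 7 days 3 ISR targets were called higher and 9 lower, with a median of -0.39, while 16.7% and 14.4% of all genes were called higher and lower. Higher were DDIT3, which encodes CHOP (1.56, SE 0.163), PPP1R15A, which restores translation after stress (0.95, SE 0.057), and SESN2 (0.70, SE 0.12). Among the lower were FGF21, a stress hormone (-2.10, SE 0.834), PHGDH, the first enzyme of serine synthesis (-1.55, SE 0.218), CHAC1, a glutathione-degrading enzyme (-1.40, SE 0.483), and the amino acid transporter SLC7A5 (-1.35, SE 0.143). FGF21 and CHAC1 lost their calls without untreated replicate 2, where 3 of the list in place of 9 were called lower. PHGDH lost its call with lane as a factor (-0.38), where 2 were called lower and 7 higher.

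With knockdown 1 ISR target was called higher and 1 lower, with a median of 0.10, while 5.18% and 7.53% of all genes were called higher and lower. The pseudokinase TRIB3 rose by 0.69 (SE 0.182) and SLC7A5 fell by 0.51 on the log2 scale (SE 0.141), a call lost with lane as a factor (-0.14). With untreated replicates 2 and 5 and 1.5 h replicate 3 left out together, a choice made after the data were seen, 6 were called higher and 0 lower. GDF15 had log2 fold changes of 2.39, 4.06 and 1.74 against untreated cells without those 3 libraries, at 1.5 h, 7 days and knockdown.

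Within a group, libraries with much GDF15 could be compared with their ISR and p53 targets. The mean log2 CPM of the 28 ISR targets ran from 5.15 to 6.56 over the untreated libraries and from 5.32 to 6.52 at 1.5 h, but only from 5.39 to 5.44 at 7 days and from 5.77 to 6.03 with knockdown. Untreated replicate 2 had the highest ISR mean of its group (6.56) and the highest GDF15 (4.32 CPM). Replicate 3 of 1.5 h likewise had the highest ISR mean (6.52) and the highest GDF15 (22.9 CPM), and replicate 5 the lowest of both (5.32 and 13.0 CPM). Replicate 1 of 7 days was also the lowest of its group in both (5.39 and 38.5 CPM). The order did not hold throughout, since untreated replicate 5 had the lowest ISR mean (5.15) but the middle GDF15 value, and knockdown replicate 5 had the highest ISR mean (6.03) but again the middle GDF15 value. Knockdown replicate 4 had the lowest ISR mean of its group (5.77) and the second highest GDF15 (10.6 CPM). The mean of the 32 p53 targets spread less, from 6.02 to 6.23 over untreated libraries, from 6.93 to 6.98 at 1.5 h, from 7.20 to 7.24 at 7 days and from 6.28 to 6.33 with knockdown. By p53 mean, untreated replicate 2 was in place 3 of its group, 1.5 h replicate 3 in place 2 and 7 days replicate 1 in place 2. Knockdown replicate 2 had the highest p53 mean and the lowest GDF15 of its group. In other libraries the 2 went together, as untreated replicate 4 and 1.5 h replicate 1 were each in place 1 by p53 mean and place 2 by GDF15. Replicate 2 of 1.5 h was in place 5 by p53 mean and place 4 by GDF15. These within-group orders rest on 5 libraries each and were not tested.

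**Figure D3:**
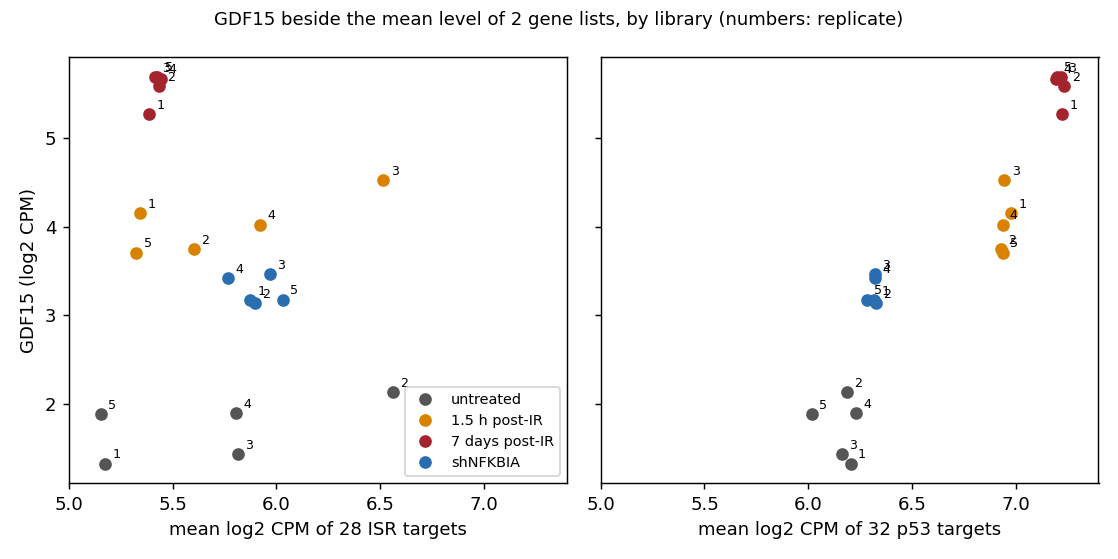
GDF15 in log2 CPM (vertical axis) against the mean log2 CPM of 28 ISR targets (left) and 32 p53 targets (right) in each of the 20 libraries, coloured by group and numbered by replicate. Untreated replicate 2 and 1.5 h replicate 3 lie far to the right of their groups on the ISR axis and are the highest of their groups in GDF15.

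At 1.5 h GDF15 varied more between replicates than most genes of similar level. Its coefficient of variation there was 24.3%, against a median of 5.79% over the 200 genes closest to it in level, of which 199 varied less. Without 1.5 h replicate 3 it was 15.2% against 5.35%, with 196 of 200 lower. At 7 days it was 11.6% against 3.49%, a value that rested on replicate 1, since without that library it was 3.38% against 3.08%, with 116 of 200 lower. With knockdown it was 11.1% against 6.55%, with 180 of 200 lower. In untreated cells it was 23.5% against 18.7%, with 132 of 200 lower, ranging from 19.6% against 20.4% with 94 lower (without untreated replicate 1) to 27.2% against 13.6% with 195 lower (without untreated replicate 5).

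Of 18 transcription factors known to act on GDF15, 3 were called higher and 0 lower at 1.5 h, 3 higher and 3 lower at 7 days, and 0 higher and 1 lower with knockdown. Over all genes 2.08% and 1.57% were called higher and lower at 1.5 h, 16.7% and 14.4% at 7 days, and 5.18% and 7.53% with knockdown. ATF3, a stress factor of the ATF/CREB family, rose by 2.60 (SE 0.086) at 1.5 h and by 0.93 (SE 0.084) at 7 days. It stood at 14.3 to 19.4 CPM in untreated libraries, 99.8 to 111 CPM at 1.5 h and 32.6 to 35.1 CPM at 7 days. Its highest level thus came at 1.5 h, whereas GDF15 was highest at 7 days. With knockdown ATF3 fell by 0.62 on the log2 scale (SE 0.087) to 9.20 to 12.6 CPM, a call that was lost with lane as a factor (-0.39).

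JUN, a subunit of AP-1, rose by 0.61 (SE 0.047) at 1.5 h, as did CEBPB by 0.60. At 7 days DDIT3 rose from 11.7 to 34.9 CPM, with 32.2 to 37.7 CPM in its libraries, and the Krüppel-like factor KLF6 rose by 0.70 (SE 0.068). ATF4, the main factor of the ISR, fell by 0.54 on the log2 scale (SE 0.124) at 7 days and lost its call without untreated replicate 2 (-0.47). KLF4 (-1.12, SE 0.235) and TFEB, which controls lysosomal genes (-0.69, SE 0.085), were also lower at 7 days. KLF4 was scarce, with means of 0.383 CPM in untreated cells and 0.174 CPM at 7 days. With lane as a factor the calls of KLF6 (0.27) and KLF4 (-1.03) at 7 days were lost, and ATF4 stood at 0.015. The same setting added calls for KLF6, lower at 1.5 h (-0.65) and with knockdown (-0.65), for DDIT3, higher at 1.5 h (1.04) and with knockdown (1.38), and for CEBPB, higher at 7 days (1.39).

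EGR1 at 1.5 h differed by 0.17 (SE 0.22), and by 0.61 with a call when untreated replicate 5 was left out. Its difference was -0.88 with lane as a factor, where it was also called lower at 7 days (-1.20) and with knockdown (-1.31). The NF-κB subunits RELA and NFKB1 were not called in any comparison with untreated cells, with log2 fold changes of -0.20 (SE 0.121) and -0.09 (SE 0.057) under knockdown. With lane as a factor RELA was called lower at 1.5 h (-0.91), at 7 days (-0.84) and with knockdown (-0.85). The other factors SP1, KLF5, NFE2L2, HIF1A, XBP1 and TFE3 were not called either. SP1 at 7 days lay at -0.47 and was called lower without untreated replicate 1 (-0.52) or 4 (-0.62). KLF5 with knockdown lay at -0.48 and was called lower without untreated replicate 1, 2, 3 or 4 (-0.53 to -0.61). With lane as a factor SP1 was called at 7 days, KLF5 in all 3 comparisons, HIF1A at 7 days and with knockdown, and XBP1 at 1.5 h and 7 days.

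Transcripts for the receptor of GDF15 were few in these cells. GFRAL had at most 1 count in any library and was too low to test, and the related GFRA4 had 0. GFRA2 had at most 7 counts and GFRA3 at most 11, which was also too few to test. RET was low in every group and rose at 7 days from 0.348 to 0.686 CPM (0.92, SE 0.202), a call lost with lane as a factor (1.07, SE 0.635). GFRA1, the receptor of the neurotrophic factor GDNF, rose at 7 days from 0.181 to 3.33 CPM (4.14, SE 0.213) and was called lower with knockdown at 0.062 CPM (-1.48, SE 0.45), a call that turned to 0.42 with lane as a factor.

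Of 8 convertases and proteases tested (of 10), FURIN, the standard convertase for precursors of the family, was level at 162, 167, 166 and 165 CPM in untreated, 1.5 h, 7 days and knockdown, with log2 fold changes of 0.05, 0.04 and 0.03. PCSK5 differed by 0.39 (SE 0.051) at 7 days, which was under the threshold of 0.5. PCSK2, a convertase of neuroendocrine cells, was below 1 CPM in every group mean and fell at 7 days (-2.86, SE 0.288) and with knockdown (-1.88, SE 0.251), the latter call being lost with lane as a factor (-0.43). MMP14, a membrane-bound protease known to cut GFRAL, rose at 7 days from 230.2 to 341 CPM (0.57, SE 0.042). PCSK1, PCSK4, PCSK7 and the site-1 protease MBTPS1 were not called in any comparison with untreated cells, except PCSK4 at 1.5 h with lane as a factor (-0.73), and PCSK6 had at most 3 counts.

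GDF15 was also set beside the other TGF-beta family ligands. Of 18 other ligands tested (30 listed of 32 chosen), 2 were called higher and 2 lower at 1.5 h, 6 higher and 7 lower at 7 days, and 1 higher and 4 lower with knockdown. The shares over all genes were 2.08% and 1.57%, 16.7% and 14.4%, and 5.18% and 7.53%. The median log2 fold changes were -0.13, -0.34 and -0.10, and none of the 18 rose as much as GDF15 over untreated cells, a comparison that uses the values GDF15 was chosen by. The other 12 listed had too few counts to be tested. BMP2, a bone morphogenetic protein, came nearest after IR, with 0.74 (SE 0.099) at 1.5 h and 1.85 (SE 0.097) at 7 days. INHBA, which encodes the activin A subunit, rose by 0.58 (SE 0.108) and 0.57 (SE 0.108) after IR and fell by 1.83 on the log2 scale (SE 0.113) with knockdown. Both calls after IR were lost without untreated replicate 4 (0.48 and 0.46) and with lane as a factor (0.042 and -0.029). BMP4 was lower in all 3 comparisons (-1.16, -1.02 and -1.06), from 112 CPM in untreated cells to 50.2, 55.4 and 53.9 CPM.

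TGFB1, the most abundant ligand, was called lower at 7 days (-0.89, SE 0.221) and with knockdown (-0.65, SE 0.221), and both calls were lost without untreated replicate 5 (-0.44 and -0.19). At 1.5 h TGFB1 lay at -0.55 (SE 0.22) and was called lower without untreated replicate 1, 2, 3 or 4 (-0.65 to -0.66) and with lane as a factor (-1.64), but stood at -0.09 without untreated replicate 5. At 7 days TGFB2 (-0.72, SE 0.094), BMP5 (-0.71, SE 0.061) and GDF11 (-0.64) were lower as well. INHBC was called lower at 1.5 h (-1.27, SE 0.429), which was lost without untreated replicate 5 (-0.90). At 7 days AMH (-1.20, SE 0.223) and TGFB3 (-0.99, SE 0.074) were lower, while INHA (0.98, SE 0.327), GDF9 (0.65, SE 0.122), GDF1 (0.64, SE 0.143) and the muscle growth inhibitor myostatin, MSTN (0.57, SE 0.236), were higher. MSTN lost its call with DESeq2, with no filter, with only the groups compared and without the 3 libraries that stood apart. The call of MSTN was also lost without untreated replicate 3, 4 or 5 or 7 days replicate 1 (0.36 to 0.49). INHA lost its call with only the groups compared (0.97) and without 7 days replicate 2 (0.78). AMH (-0.38) and GDF1 (0.42) lost theirs with lane as a factor. Under knockdown MSTN lay at 0.56 and was called higher in some settings, such as a replicate block (0.58). With knockdown TGFB2 was lower (-0.96, SE 0.094) and GDF9 higher (0.94, SE 0.119).

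Per kilobase, GDF15 rose from place 9 of the 31 family genes in untreated cells to place 7 at 1.5 h and place 2 at 7 days, and held place 6 with knockdown. Its share of the summed family CPM per kb was 0.753% ± 0.263 (SD, n = 5) in untreated cells, 4.39% ± 1.08 at 1.5 h, 13.8% ± 1.43 at 7 days and 3.05% ± 0.333 with knockdown. TGFB1 was first in every group, with 107, 72.6, 57.6 and 68.0 CPM per kb in untreated, 1.5 h, 7 days and knockdown. Its untreated mean includes the high value of replicate 5.

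**Figure D4:**
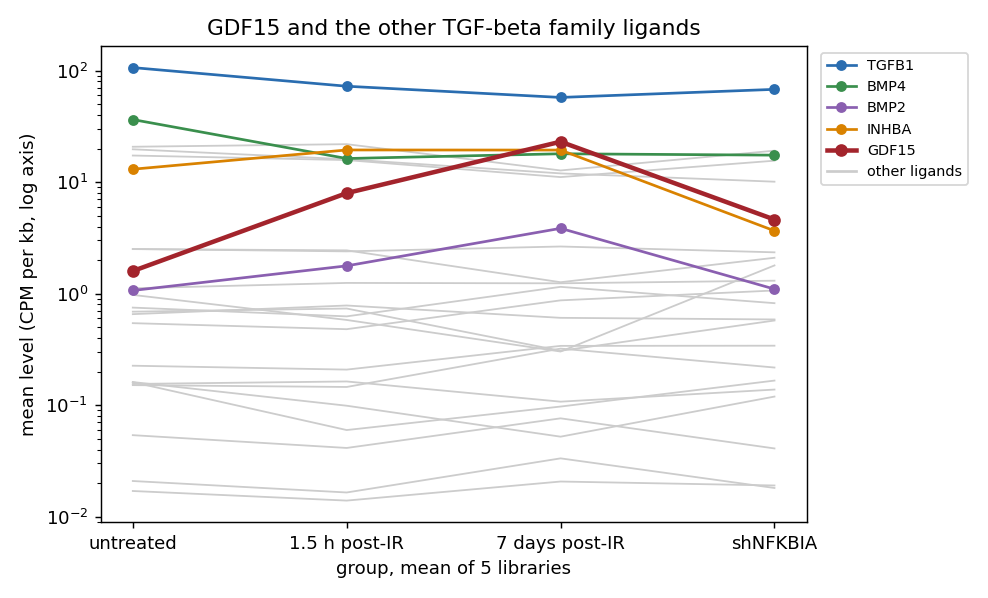
Mean level in CPM per kb on a log axis of GDF15, TGFB1, BMP4, BMP2, INHBA and the other TGF-beta family ligands (grey, those with at least 0.01 CPM per kb in every group) in each of the 4 groups. GDF15 climbs from 1.60 to 7.98 and 23.1 CPM per kb after IR and lies at 4.62 with knockdown, while TGFB1 stays on top.

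Of 8 neighbours of GDF15 on chromosome 19 that were tested, 0 were called at 1.5 h, where 2.08% and 1.57% of all genes were called higher and lower. At 7 days 1 was called higher and 2 lower, where 16.7% and 14.4% of all genes were called. With knockdown 0 were called, where 5.18% and 7.53% of all genes were called higher and lower. PGPEP1, a peptidase gene that ends 4781 bases upstream of the first GDF15 transcript in GENCODE 29, stood at 39.6 to 53.3 CPM in untreated libraries and at 86.8 to 93.5 CPM at 7 days (1.02, SE 0.071), while its differences at 1.5 h (0.14) and with knockdown (0.31) were not past the threshold. LRRC25, on the opposite strand with its nearer end 1968 bases downstream, had at most 10 counts. JUND, a further AP-1 subunit (-0.63, SE 0.124), and SSBP4 (-0.58, SE 0.083) were lower at 7 days. KIAA1683, LSM4, ISYNA1, ELL and FKBP8 were not called in any of the 3 comparisons. KIAA1683 was called lower at 1.5 h (-1.59) and 7 days (-1.57), and ELL with knockdown (-0.76), when lane was a factor. KIAA1683 was also called lower at 1.5 h with DESeq2 (-0.66) and without untreated replicate 4 (-0.78), and at 7 days without that library (-0.54). JUND at 1.5 h lay at 0.45 and was called higher without untreated replicate 4, untreated replicate 5 or 1.5 h replicate 2 (0.51 to 0.52).

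The genes whose profile was most like that of GDF15 were found by the root mean square difference of mean-centred log2 CPM over the 20 libraries, and are given without a test because the profile chose them. The nearest was PVRL4, which encodes the adhesion protein nectin-4, with a difference of 0.391 against a median of 1.42 over all 14991 other genes. It stood at 4.80 to 7.31 CPM in untreated libraries, 26.8 to 30.6 at 1.5 h, 67.7 to 75.1 at 7 days and 10.8 to 12.9 with knockdown, so its groups were in the same order as those of GDF15. GRHL3, a transcription factor of epithelial barrier genes, followed at 0.427, with means of 0.577, 1.53, 6.15 and 1.26 CPM in untreated, 1.5 h, 7 days and knockdown. CXCL8, the inflammatory chemokine IL-8, came next at 0.495, with means of 4.39, 16.3, 55.9 and 6.77 CPM.

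The other 7 were SLC52A1 (0.578), TFEC (0.616), ARHGAP30 (0.632), GREB1 (0.664), IL24 (0.686), CYP4F2 (0.688) and FETUB (0.689). FETUB and CYP4F2 had 1 count in their lowest library. All 10 had their highest mean at 7 days and their second highest at 1.5 h, although IL24 had 1.21 CPM at 1.5 h and 1.20 with knockdown. The choice depended on the measure, since 7 of the 10 were also nearest over the 4 group means but only 2, PVRL4 and GRHL3, by Pearson's r over the 20 libraries, where the p53 targets FAS, RRM2B and GADD45A took part.

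**Figure D5:**
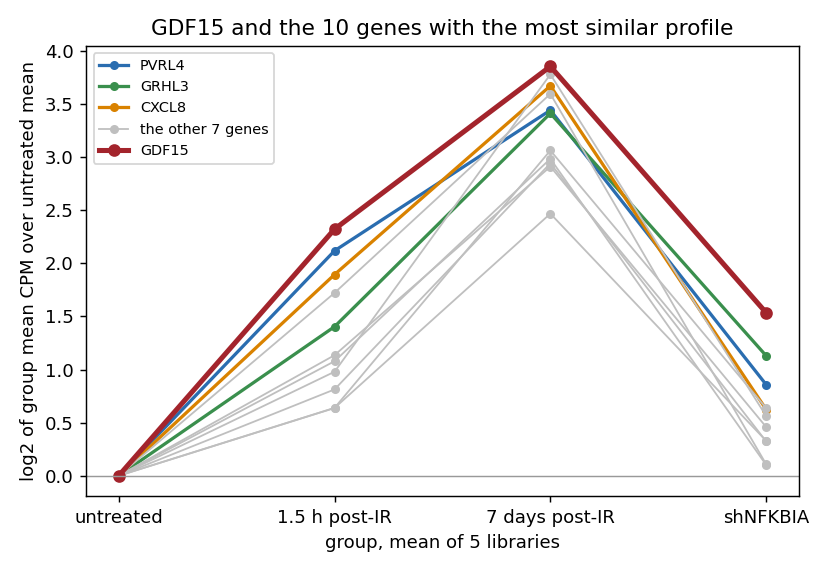
Log2 of the group mean CPM over the untreated mean for GDF15, PVRL4, GRHL3, CXCL8 and the other 7 genes with the smallest root mean square difference from GDF15. The means of all 11 genes go up from untreated to 1.5 h and again to 7 days, the pattern by which they were chosen.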

How the data were processed

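The authors deposited 1 table of counts per gene for 20 stranded mRNA libraries, with a gene width in bases. The submitters' processing notes name bcl2fastq, Trimmomatic, STAR 2.4.2a and hg19, while the counter, annotation and strand setting were not given in the sources used here. No column of per-sample values was left unused. The deposited width of GDF15, 2087 bases, equals the summed exons of GENCODE 29.

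Counts were tested with edgeR 4.0.16 in R 4.3.3 (trimmed-mean factors, filterByExpr with a minimum count of 10, quasi-likelihood fit over all 20 libraries with group as the only term, Benjamini-Hochberg adjustment). SE was the fold change over the root of F. Log2 CPM used a prior count of 2. Calls needed an adjusted p below 0.05 and a log2 change over 0.5. Depth was 22535659 to 40390961 counts per library. The fit was tested on simulated data.

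Named genes were GDF15, NFKBIA, all measured receptors, convertases, transcription factors and neighbours, the 10 genes most like GDF15, and from the ligand, p53 and ISR lists the 4 largest called changes per comparison plus members called against the majority. GDF15 was left out of the lists. TGFB1 was named after its values were seen. The gene and the lists were chosen with earlier results of these data known. A few list members were not analysed here or are not reported here. Alternatives were other scaling, DESeq2 1.42.0, filters, a replicate block, lane as a factor, only the groups compared, and each library left out. Coordinates come from GENCODE 29 and RefSeq on GRCh38, not from the files' build.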

Additional observations from a re-analysis of the deposited data

Results flagged for a closer look

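GDF15 differed in size of rise between the times after IR, by a log2 fold change of 1.53 (7 days against 1.5 h, edgeR, adjusted p = 6.48e-09). Replicate 1 of 7 days, at 38.5 CPM, lay further below the other 4 GDF15 values (48.0 to 51.7 CPM) than Dixon's criterion for 5 values allows, and the 7-day log2 fold change ranged from 3.76 to 3.98 when each library was left out in turn. Over the 72 groups of 5 tested in the same way, 5 passed, where chance gives about 1 in 20. The other 4 were PVRL4 in untreated replicate 5 (4.80 CPM, lowest), TGFB1 in the same library (733 CPM, highest), and GADD45A in 1.5 h replicate 1 (132 CPM, highest) and in knockdown replicate 5 (103 CPM, highest).

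For a set of other named genes the log2 fold change against untreated had opposite signs at the 2 times, was called at 1 of them, and differed between 7 days and 1.5 h by a call in edgeR. None was called at both times, and DDIT3 (-0.02, SE 0.166), MMP14 (-0.01, SE 0.042), AMH (0.07, SE 0.193), INHA (-0.14, SE 0.373), MSTN (-0.13, SE 0.252) and PCSK2 (0.17, SE 0.187) at 1.5 h and NFKBIA (-0.02, SE 0.104) at 7 days lay at the untreated level within their SE. NFKBIA at 7 days was called lower with lane as a factor (-0.54). The difference was positive for GFRA1 (4.78), DDIT3 (1.58), INHA (1.12), KLF6 (1.07), GDF1 (0.87), GDF9 (0.86), MSTN (0.70) and MMP14 (0.58). It was negative for PCSK2 (-3.03), KLF4 (-1.46), NFKBIA (-1.42), AMH (-1.26) and JUND (-1.08).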

How the results depend on the processing

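GDF15 kept its direction in all 6 comparisons under every alternative, and of its 3 tested differences only knockdown against 1.5 h lost its call, with lane as a factor (-0.96, adjusted p = 0.0706 with edgeR). The cause was not tested. Leaving out each library in turn gave GDF15 log2 fold changes of 2.19 to 2.46 at 1.5 h, 3.76 to 3.98 at 7 days and 1.45 to 1.67 with knockdown against untreated. At this depth GFRAL was read by at most 1 count and GDF15 by at least 76.

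With lane as a factor, the p53 targets called with knockdown became 13 higher and 2 lower. The ISR targets became 8 higher and 1 lower at 1.5 h, 7 higher and 2 lower at 7 days, and 4 higher with knockdown. Over all genes, 1781 were called higher and 2039 lower at 1.5 h (312 and 236 without lane), 1994 and 2094 with knockdown (777 and 1129), and 527 and 659 for knockdown against 1.5 h (981 and 1140). Signs turned for GFRA1 (0.42) and HIF1A (-0.56) with knockdown, for EGR1 (-0.88), DDIT3 (1.04) and XBP1 (0.74) at 1.5 h, and for ATF4 (0.015), INHBA (-0.029), FGF21 (1.45) and CHAC1 (0.75) at 7 days. Lane and group are almost the same split here. Comparisons with lane as a factor rest on untreated replicate 5 for untreated cells and on knockdown replicate 1 for knockdown. They can therefore not serve as a check of lane apart from these libraries, and the cause of the changes was not tested.

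Fitting only the groups compared gave 94 genes called lower at 1.5 h and 1 ISR target higher. Without the 3 libraries that stood apart, 1 ISR target was called higher at 1.5 h, and 6 were called higher and 0 lower with knockdown. The 1 ISR target called lower with knockdown (SLC7A5) was 0 with library size alone.

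Leaving out each library gave 157 to 343 genes lower at 1.5 h (157 without 1.5 h replicate 2). ISR targets called were 1 to 2 higher and 0 to 1 lower at 1.5 h (1 higher without untreated replicate 5, 1 lower without 1.5 h replicate 3), 3 to 13 lower at 7 days (3 without untreated replicate 2), and 1 to 3 higher and 0 to 1 lower with knockdown (3 higher without untreated replicate 2, 0 lower without that library, untreated replicate 3 or knockdown replicate 4). The p53 targets called with knockdown were 1 to 3.

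Replicate numbers did not pair the samples, since the deviations of same-numbered libraries correlated at -0.254 to 0.123, with 2 of 30 pairs over 0.1. With a replicate block GDF15 changed by 1.53, -0.79 and 2.32 in its tested comparisons, 21, 29 and 2 p53 targets were called higher, 186 genes were called lower at 1.5 h, and the ISR targets called lower with knockdown went from 1 to 0.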
